A study of Oryctolagus cuniculus with 9 samples.

Results

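The transforming growth factor beta (TGF-beta) genes described here are 9 genes chosen by name from 20525 in the deposited table: the ligands TGFB1, TGFB2 and TGFB3, the receptors TGFBR1 and TGFBR2, the signal transducers SMAD2, SMAD3 and SMAD7, and TGFBI, whose name means TGF-beta induced. These genes and the lists used below were chosen with earlier results of these data known, so their shares beside all genes only describe. All 9 were found, and all 9 were among the 17344 genes that passed the filter on low counts. They were followed in vocal fold tissue of rabbits (Oryctolagus cuniculus) in 3 groups of 3 libraries. Normal folds had no injury, untreated folds were injured and given nothing, and SOT folds were injured and given a hydrogel named SOT, which the study title describes as antioxidant and adhesive. Both injured groups were taken 1 week after injury. The sources used here give no strain, age or sex and do not say that replicates were separate animals. P-values therefore speak only for the spread among these libraries, some of which may be technical.

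TGF-beta ligands are secreted in a latent complex, in which the ligand is held by its own propeptide and anchored to matrix or to a cell surface until it is released. The freed ligand joins the receptors encoded by TGFBR2 and TGFBR1, and TGFBR1 then phosphorylates SMAD2 and SMAD3, which enter the nucleus with SMAD4 to change transcription. SMAD7 is an inhibitory SMAD that is itself induced by the pathway and acts on TGFBR1. In vocal fold injury the pathway is studied for its part in fibroblast activation, matrix deposition and scarring.

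Total counts per library ranged from 44755718 to 50338111. The labels call the cells histiocytes, a term for tissue macrophages, while markers of many cell types were detected. Of 12 macrophage markers 10 were in the table, none at 0 in any group, and their summed level ran from 126 to 185 FPKM (fragments scaled to gene length and library size) in normal, 695 to 787 in untreated and 355 to 502 in SOT libraries. Beside them stood 9 fibroblast markers, at 1272 to 1621 FPKM in normal, 1654 to 1760 in untreated and 1433 to 2434 in SOT libraries, and 7 of 8 stratified epithelium markers, at 4723 to 13149 FPKM in normal folds. Markers of cells other than macrophages were thus present in every library. SOT replicate 3 had 67.4 FPKM of the 8 T cell markers against 12.5 and 13.6 in SOT replicates 1 and 2, and the lowest endothelial sum of its group, 121 FPKM against 287 and 192. SOT replicate 2 had the highest fibroblast sum, 2434 FPKM against 1433 and 1541.

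**Figure D1:**
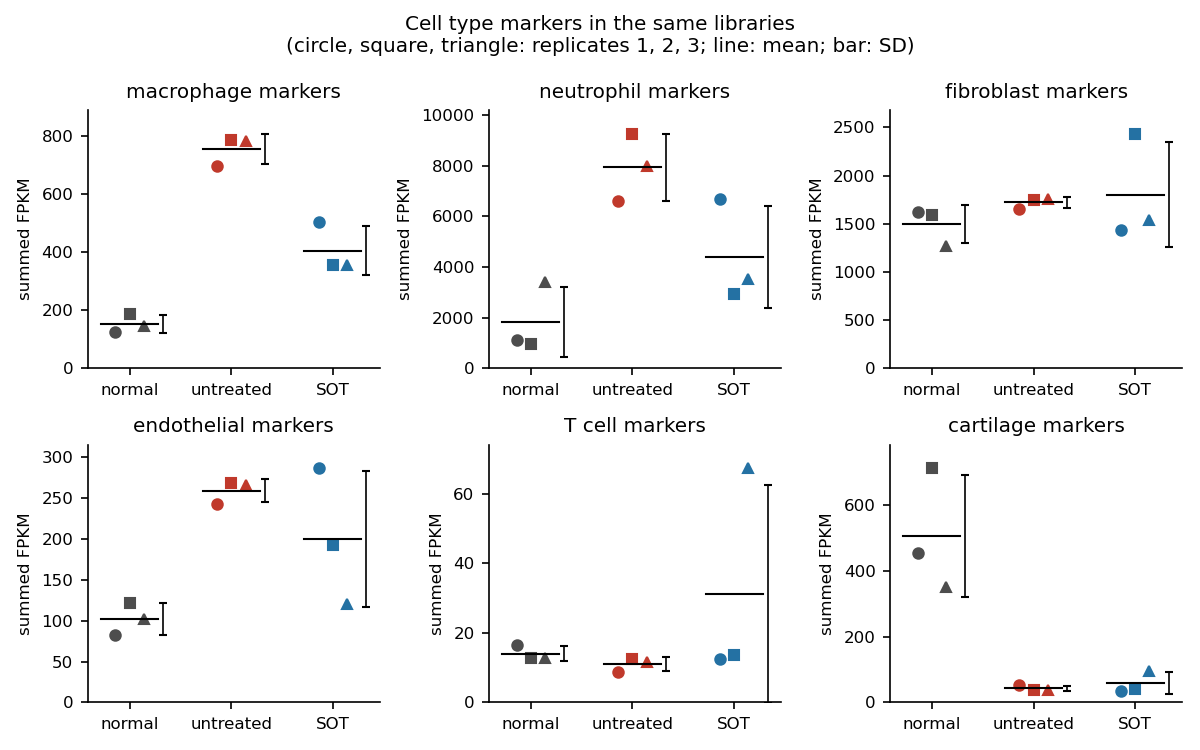
Summed FPKM of markers of 6 cell types (y axes, linear from 0) in normal, untreated and SOT libraries, with replicates 1, 2 and 3 as circle, square and triangle, the mean as a line and the SD as a bar. Macrophage sums of the SOT libraries (355 to 502) lie between those of normal (126 to 185) and untreated libraries (695 to 787), and SOT replicate 3 stands apart in T cell markers (67.4). The neutrophil sums are mostly S100A8, S100A9 and S100A12.

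In normal folds the per-length level (FPKM, mean ± SD, n = 3 in every group) was highest for TGFBI at 51.5 ± 10.4 and TGFBR2 at 40.9 ± 0.608, whose libraries overlapped. SMAD2 followed at 22.3 ± 1.41. TGFB3 at 17.3 ± 3.07, SMAD3 at 15.9 ± 2.54 and TGFB1 at 12.5 ± 1.49 formed a run in which each overlapped the next. Below them, and each apart from its neighbour, came TGFBR1 at 11 ± 0.743, TGFB2 at 5.32 ± 0.875 and SMAD7 at 3.79 ± 0.349. TGFBI was higher than 92.4% of the tested genes and SMAD7 higher than 40.3%. The deposited count and FPKM of TGFB1 together imply a gene model of 0.976 kb, the shortest of the 9 (SMAD2 was next at 2.27 kb and TGFBR1 longest at 6.47 kb). The FPKM of TGFB1 beside other genes depends on that length, whereas its comparison between groups does not.

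In untreated folds the order was different. TGFBI stood at 426 ± 52.0 FPKM, higher than 99.2% of the tested genes, followed by TGFBR2 at 71.5 ± 10.3, TGFB1 at 45.1 ± 4.11, TGFB3 at 31.1 ± 1.42, SMAD2 at 26.9 ± 1.19, TGFBR1 at 22.4 ± 3.15, SMAD3 at 13.5 ± 1.48, SMAD7 at 6.76 ± 1.34 and TGFB2 at 3.31 ± 0.598, with no overlap between neighbours. In SOT folds TGFBI at 222 ± 89.8 and TGFBR2 at 66.6 ± 14.7 kept the first places. TGFB1 (32.0 ± 4.91), SMAD2 (28.6 ± 0.302), TGFB3 (28.1 ± 12.3), TGFBR1 (20.1 ± 3.12) and SMAD3 (19.2 ± 2.96) each overlapped the next, and SMAD7 (5.96 ± 1.24) overlapped TGFB2 (4.49 ± 0.852). TGFB1 thus moved from the sixth place in normal folds to the third in both injured groups.

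**Figure D2:**
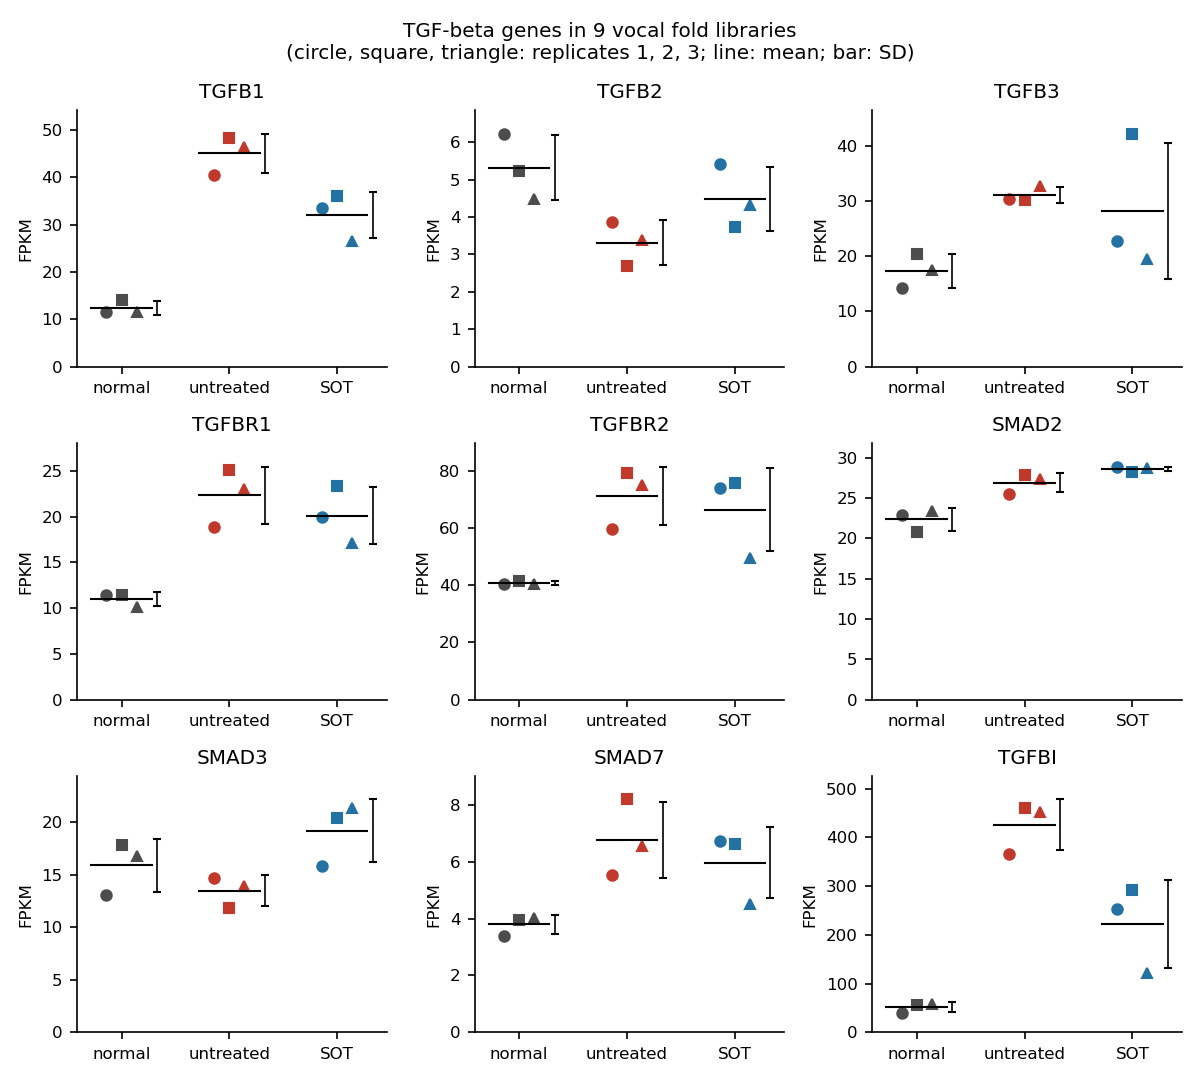
FPKM (y axes, linear from 0) of the 9 genes in normal, untreated and SOT libraries, with replicates 1, 2 and 3 as circle, square and triangle, the mean as a line and the SD as a bar. TGFB1 and TGFBI rise from normal to untreated folds and lie between in SOT folds, TGFB2 has its lowest mean in untreated folds, and SMAD3 its highest mean in SOT folds.

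How the pathway's transcripts differ 1 week after injury was read from untreated against normal folds. Of the 9 genes, 7 rose, 1 fell and 1 did not pass. Over all tested genes 32.8% were called, 17.7% higher and 15.1% lower (edgeR's quasi-likelihood test, Benjamini-Hochberg adjusted p under 0.05). The groups did not overlap for 8 of the 9, 7 higher and 1 lower, against 55.1% of all tested genes, 28% higher and 27.1% lower. The median log2 fold change was 0.87 for the 9 genes and -0.02 for all tested genes. The values that follow are counts scaled to library size (CPM), and adjusted p-values are from the same test. In bulk tissue, fewer cells of a type and less RNA per cell cannot be told apart.

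The ligands differed in direction. TGFB1, the isoform made by many leukocytes and stromal cells, lies on a scaffold not placed on a chromosome, at 611966 to 626445 (positions from the deposited table, build OryCun2.0). It had 11.7, 14.1 and 11.3 CPM in the normal libraries and 41.2, 49.7 and 46.6 CPM in the untreated ones. The groups did not overlap, and TGFB1 rose by a log2 fold change of 1.89 (SE 0.16, adjusted p = 0.000364), more than 94.0% of the tested genes. TGFB3, on chromosome 20 at 29182872 to 29208377, an isoform studied for its link with reduced scarring, had 59.5, 83.7 and 70.9 CPM in normal and 128, 129 and 136 CPM in untreated libraries. Every untreated library lay above every normal one, and TGFB3 rose by 0.88 on the log2 scale (SE 0.27, adjusted p = 0.0371). Its call was lost without normal replicate 1 (0.117), 2 (0.0559) or 3 (0.103), untreated replicate 1 (0.0698), 2 (0.0883) or 3 (0.104), or SOT replicate 1 (0.0518), and with quantile normalization (0.0643). TGFB2, on chromosome 16 at 54746240 to 54836028, was the member that fell. It had 25.6, 21.2 and 18 CPM in normal and 16, 11.2 and 13.9 CPM in untreated libraries (log2 fold change -0.65, SE 0.22, adjusted p = 0.0482). The groups did not overlap, but this call was lost without normal replicate 1 (0.150) or 2 (0.0952), untreated replicate 2 (0.156) or 3 (0.124), or SOT replicate 3 (0.0522), and with no filter on low counts (0.0547).

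Both receptors rose. TGFBR1, the kinase that phosphorylates SMAD2 and SMAD3, lies on chromosome 1 at 14063554 to 14107695. It had 76.4, 75.2 and 66.0 CPM in normal and 127, 171 and 153 CPM in untreated libraries, a fold of 2.07 with a 95% interval of 1.62 to 2.65 (log2 fold change 1.05, SE 0.16, adjusted p = 0.00230). TGFBR2, the ligand-binding receptor on chromosome 14 at 17662677 to 17751116, had 213, 216 and 209 CPM in normal and 319, 427 and 395 CPM in untreated libraries. Its fold was 1.79 with an interval of 1.32 to 2.43 (log2 fold change 0.84, SE 0.19, adjusted p = 0.0125). The normal libraries were close together in TGFBR2, and untreated replicate 1 was the lowest of its group for both receptors. The calls of TGFB1, TGFBR1, TGFBR2 and TGFBI held in each of the 9 fits without 1 library and under each of the 8 other settings.

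Of the 3 SMAD genes 2 rose. SMAD7, on chromosome 9 at 89925759 to 89952211, had 13.6, 15.7 and 15.7 CPM in normal and 22.4, 33.5 and 26.3 CPM in untreated libraries. It rose by 0.87 on the log2 scale (SE 0.21, adjusted p = 0.0155), a call lost without normal replicate 1 (0.0576) or untreated replicate 2 (0.0590). SMAD2, on the same chromosome at 89013100 to 89082151, had 53.4, 47.7 and 53.3 CPM in normal and 60.2, 66.3 and 63.6 CPM in untreated libraries. The groups did not overlap and SMAD2 rose by 0.30 (SE 0.09, adjusted p = 0.0342), a fold of 1.23 with an interval of 1.07 to 1.42. That call was lost without normal replicate 1 (0.0642), 2 (0.10) or 3 (0.0510) or untreated replicate 2 (0.124) or 3 (0.107), and with quantile normalization (0.0997). SMAD3, on chromosome 17 at 5343941 to 5458065, did not pass. Its libraries overlapped, with 82.0, 110 and 103 CPM in normal and 93.3, 75.9 and 87.3 CPM in untreated folds, and its fold of 0.870 had an interval of 0.69 to 1.1 (adjusted p = 0.320).

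TGFBI encodes a secreted matrix protein that binds collagens and integrins, and lies on chromosome 3 at 18446598 to 18553967. It had 141, 197 and 203 CPM in normal and 1315, 1667 and 1605 CPM in untreated libraries. The lowest untreated library was far above the highest normal one, and TGFBI rose 8.47-fold with a 95% interval of 4.92 to 14.6 (log2 fold change 3.08, SE 0.34, adjusted p = 0.000857), more than 97.4% of the tested genes. Markers of other cells moved in the same comparison. Over all tested genes 32.8% were called. Of 10 macrophage markers 8 rose, of 6 neutrophil markers 5 rose and of 7 endothelial markers 4 rose. Of 9 fibroblast markers 2 rose and 4 fell, while 5 of 7 cartilage and 4 of 4 skeletal muscle markers fell. Of 7 stratified epithelium markers 1 rose, of 6 mural markers 2 rose and 2 fell, and of 8 T cell markers 1 fell. The part of these cells in the rise of the TGF-beta genes was not tested. Of 5 platelet markers in the table PPBP was at 0.192 to 2.15 FPKM in normal and 79.8 to 132 in untreated libraries. ITGA2B was at 2.38 to 2.98 FPKM in normal and 2.87 to 3.40 in untreated libraries, while GP9 reached at most 0.357 FPKM and TREML1 was at 0 in the untreated libraries.

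**Figure D3:**
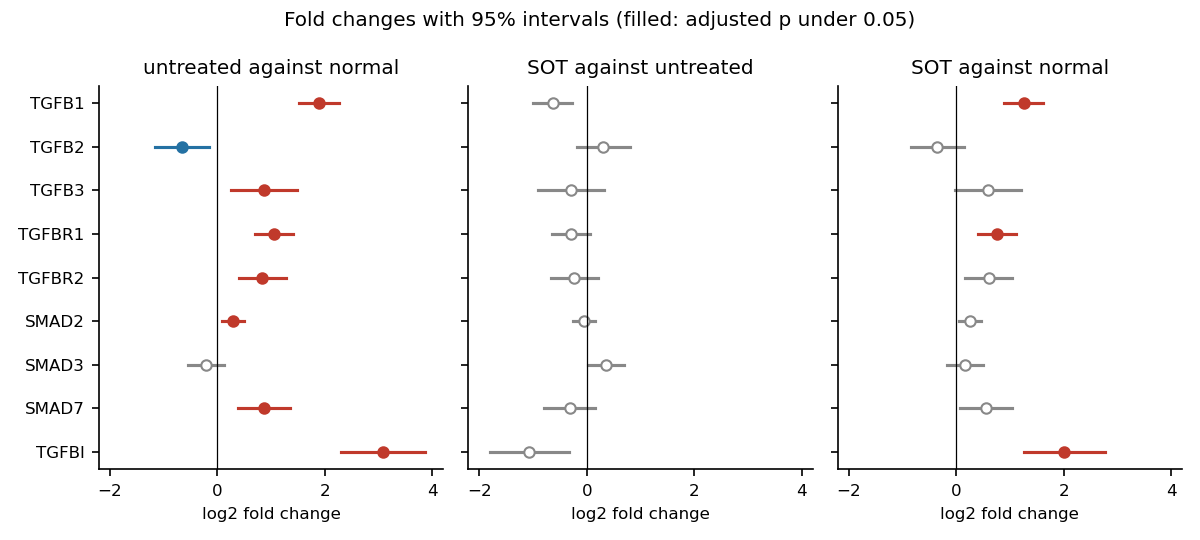
Log2 fold change (x axes) of each of the 9 genes with its 95% interval in the 3 comparisons, filled where adjusted p was under 0.05 and open where not. In untreated against normal folds 8 genes are filled, in SOT against untreated folds none, and in SOT against normal folds TGFB1, TGFBR1 and TGFBI.

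Since FPKM is per length, the ligands were also set side by side within each library. TGFB1 made up 36.3%, 35.7% and 34.5% of the summed ligand FPKM in normal libraries, 54.3%, 59.5% and 56.3% in untreated libraries and 54.3%, 43.9% and 52.8% in SOT libraries. Both injured groups lay above the normal one without overlap, and SOT replicate 2 was the lowest injured library. TGFB2 made up 15.3% ± 3.54 in normal, 4.19% ± 0.947 in untreated and 7.31% ± 2.39 in SOT folds, and TGFB3 the rest. The ratio of TGFB3 to TGFB1 was 1.22, 1.44 and 1.51 in normal, 0.747, 0.625 and 0.704 in untreated and 0.679, 1.17 and 0.731 in SOT libraries. TGFB3 therefore exceeded TGFB1 in every normal library and in SOT replicate 2, on the deposited FPKM. Whether the short TGFB1 model is complete was not tested, and these shares, this ratio and the place of TGFB1 among the 9 genes all depend on it. In CPM, which is not per length, TGFB3 was above TGFB1 in each of the 9 libraries. For both quantities the exact two-sided permutation p was 0.1 against normal folds in either injured group, the smallest that 3 against 3 allows, with 0.25 after adjustment over the 15 such tests. Between SOT and untreated folds the exact permutation p was 0.2 for the TGFB1 share and 0.5 for the TGFB3 to TGFB1 ratio.

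**Figure D4:**
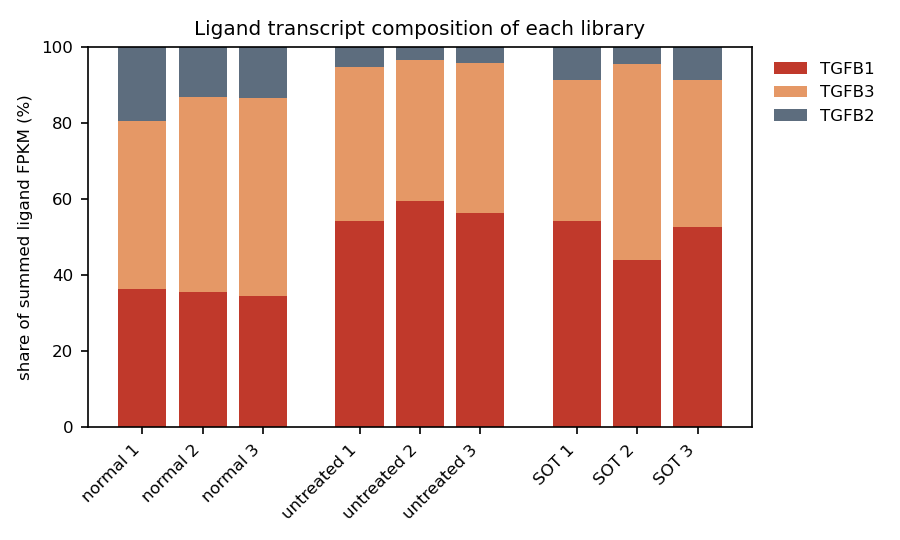
Share (%) of TGFB1, TGFB3 and TGFB2 in the summed FPKM of the 3 ligands in each library, 1 stacked bar per library and each bar adding up to the whole. TGFB1 takes 34.5% to 36.3% in normal libraries, 54.3% to 59.5% in untreated libraries and 43.9% to 54.3% in SOT libraries.

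The ratio of the inhibitory SMAD7 to SMAD2 plus SMAD3 was 0.0945, 0.103 and 0.10 in normal libraries and 0.138, 0.206 and 0.159 in untreated ones, without overlap (exact permutation p = 0.1). In SOT libraries it was 0.151, 0.136 and 0.0904, so that SOT replicate 3 lay below the normal libraries and replicates 1 and 2 above them. TGFBR1 relative to TGFBR2 was 0.269 ± 0.0175 in normal, 0.313 ± 0.0053 in untreated and 0.307 ± 0.0374 in SOT folds. The untreated libraries all lay above the normal ones in this ratio (exact permutation p = 0.1), while the SOT libraries overlapped both groups. SMAD3 relative to SMAD2 was 0.715 ± 0.145, 0.504 ± 0.0751 and 0.672 ± 0.107 in the same order, with overlapping libraries in each pair of groups.

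SOT folds were compared with untreated folds to ask whether the hydrogel was accompanied by other transcript levels at the same time after injury. By edgeR none of the 9 genes passed, and over all genes few did: 0.0115% of the tested genes were called, which is 2 genes known only by locus numbers, LOC103345297 and LOC103346274, named here after their values were seen. That count of 2 became 397 without SOT replicate 1, 6 without untreated replicate 1, 1 without SOT replicate 2 or 3, and 0 without any of the other 5 libraries. At an unadjusted p under 0.05 there were 3 of the 9, TGFB1, TGFBI and SMAD3, against 12.6% of all tested genes. DESeq2 called 2 of the 9, TGFB1 (adjusted p = 0.0303) and TGFBI (0.0464), both lower. Of the genes it tested DESeq2 called 3.65%, 1.25% higher and 2.4% lower. The median log2 fold change was -0.29 over the 9 genes and 0.01 over all tested genes.

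TGFB1 had 32.3, 32.6 and 23.8 CPM in the SOT libraries, all below the 41.2 to 49.7 CPM of the untreated ones. Its fold was 0.645 with an interval of 0.503 to 0.828 (log2 fold change -0.63, SE 0.16, adjusted p = 0.193). TGFBI had 862, 938 and 384 CPM, likewise all below the 1315 to 1667 CPM of the untreated libraries, a fold of 0.476 with an interval of 0.287 to 0.791 (log2 fold change -1.07, SE 0.32, adjusted p = 0.254). SOT replicate 3 was the lowest for both genes. Without it the log2 fold changes were -0.46 and -0.72 (adjusted p = 0.409 and 0.364). SMAD3 had 95.3, 115 and 120 CPM, all above the 75.9 to 93.3 CPM of the untreated libraries, a fold of 1.29 with an interval of 1.02 to 1.62 (adjusted p = 0.359). These were the 3 members whose groups did not overlap in CPM, 2 lower and 1 higher in SOT folds. Of all tested genes 19.8% had groups that did not overlap, 12.4% lower and 7.4% higher.

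The other 6 genes overlapped in CPM between SOT and untreated libraries. TGFB3 was the most variable, with 91.2, 159 and 72.3 CPM in the SOT libraries, where replicate 2 lay above the 128 to 136 CPM of the untreated libraries and replicates 1 and 3 below. Its log2 fold change was -0.29 with all libraries (adjusted p = 0.691), -0.67 without SOT replicate 2 (0.243) and -0.03 without SOT replicate 3 (0.987). TGFB2 had 21.3, 13.8 and 15.9 CPM and a fold of 1.24 with an interval of 0.879 to 1.74 (adjusted p = 0.594). TGFBR1, at 127, 140 and 102 CPM, had a fold of 0.818 with an interval of 0.641 to 1.04 (adjusted p = 0.476), and TGFBR2, at 374, 361 and 233 CPM, a fold of 0.850 with an interval of 0.627 to 1.15 (adjusted p = 0.645). SMAD7 had 25.9, 24.0 and 16.2 CPM and a fold of 0.803 with an interval of 0.577 to 1.12 (adjusted p = 0.574). SMAD2, at 64.5, 59.4 and 59.8 CPM, was the narrowest, with a fold of 0.966 and an interval of 0.838 to 1.11 (adjusted p = 0.853). In FPKM, however, its SOT libraries (28.2 to 28.8) all lay above its untreated libraries (25.5 to 27.8). Of the 9 genes 6 had their lowest SOT value in replicate 3, namely TGFB1, TGFB3, TGFBR1, TGFBR2, SMAD7 and TGFBI. Untreated replicate 1 was likewise the lowest of its group in 7 of the 9. The matching shares of all tested genes were not counted, so these counts only describe. Without SOT replicate 3 the log2 fold change of TGFBR2 went from -0.24 to -0.01 and that of SMAD7 from -0.32 to -0.10.

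Cell markers moved beside these values. The 10 macrophage markers summed to 502, 356 and 355 FPKM in SOT replicates 1, 2 and 3, all below the 695 to 787 FPKM of the untreated libraries, with a median log2 fold change of -0.97 and none of the 10 called by edgeR. The 6 neutrophil markers summed to 6690, 2935 and 3539 FPKM in SOT and 6602 to 9254 FPKM in untreated libraries, with a median of -1.58. Most of that sum was S100A8, S100A9 and S100A12, and S100A12 alone had 867, 597 and 2492 FPKM in the normal libraries. Normal replicate 3 had a sum of 3412 FPKM, above that of SOT replicate 2, while its CXCR2 was lower (2.07 against 11.8 FPKM). The sum thus did not follow CXCR2. CXCR1 had 110, 21.9 and 6.11 FPKM in SOT replicates 1, 2 and 3, and CXCR2 and CSF3R were likewise lowest in replicate 3. S100A9 was also lowest there, at 1162 FPKM against 1227 in replicate 2. By contrast S100A8 (1384, 288 and 328 FPKM) and S100A12 (2423, 1363 and 2030 FPKM) were lowest in replicate 2. SOT replicates 2 and 3 had nearly equal macrophage sums. Within them C1QC (27.3 and 78.6 FPKM), AIF1 and MARCO were higher in replicate 3, and the other macrophage markers were lower. In TGFB1 SOT replicates 1 and 2 were close, at 32.3 and 32.6 CPM, and replicate 3 was lower, at 23.8 CPM. The part of these cells in the lower TGFB1 and TGFBI was not tested.

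SOT folds were compared with normal folds to describe how far the treated tissue still differed from uninjured tissue. Of the 9 genes 3 rose, none fell and 6 did not pass, against 16.7% of all tested genes called, 9.01% higher and 7.67% lower. DESeq2 called 5 of the 9, adding TGFBR2 and SMAD2, against 25.5% of its genes, 13.1% higher and 12.4% lower. In 6 of the 9 the SOT libraries all lay above the normal ones, against 36.4% of all genes without overlap, 17.8% higher and 18.6% lower. This comparison shares its SOT and normal libraries with the other comparisons. TGFB1 rose 2.39-fold with an interval of 1.86 to 3.08 (adjusted p = 0.00462), TGFBR1 rose 1.70-fold with an interval of 1.33 to 2.17 (adjusted p = 0.0158) and TGFBI rose 4.03-fold with an interval of 2.40 to 6.79 (adjusted p = 0.00872). These 3 calls held in each fit without 1 library and under the 8 other settings. Non-overlapping and higher in SOT folds, but without a call, were TGFBR2 at a fold of 1.52 (adjusted p = 0.0647), SMAD2 at 1.19 (0.0898) and SMAD7 at 1.47 (0.105). Without SOT replicate 3 TGFBR2 (0.0101) and SMAD7 (0.0293) passed, so that 5 of the 9 were called. TGFBR2 also passed with quantile normalization (0.0452). On log2(FPKM + 0.1) and log2(FPKM + 1) both TGFBR2 (0.0296 and 0.0299) and SMAD2 (0.0209 and 0.0196) passed. TGFB3 had a fold of 1.505 with an interval of 0.985 to 2.30 (adjusted p = 0.161), TGFB2 0.786 with 0.559 to 1.11 (0.299) and SMAD3 1.12 with 0.888 to 1.41 (0.478), each with overlapping libraries.

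The rest of the pathway was read from 78 other genes in 5 lists, of which 75 were in the table and tested. Between untreated and normal folds 33 rose, 12 fell and 30 did not pass, against 32.8% of all tested genes called (17.7% higher, 15.1% lower). Their median log2 fold change was 0.47 and that of all tested genes -0.02. Between SOT and normal folds 19 rose and 5 fell, against 9.01% of all tested genes higher and 7.67% lower. These 24 calls became 12 without normal replicate 1, 14 without normal replicate 2 or untreated replicate 3, 15 without SOT replicate 2, and 12 with only the 2 groups in the fit. Between SOT and untreated folds none passed by edgeR and 20 of 75 had an unadjusted p under 0.05, against 12.6% of all tested genes. DESeq2 called 2 of the 75, NRROS and FURIN, both lower, a share no higher than the 3.65% it called over all its genes.

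**Figure D5:**
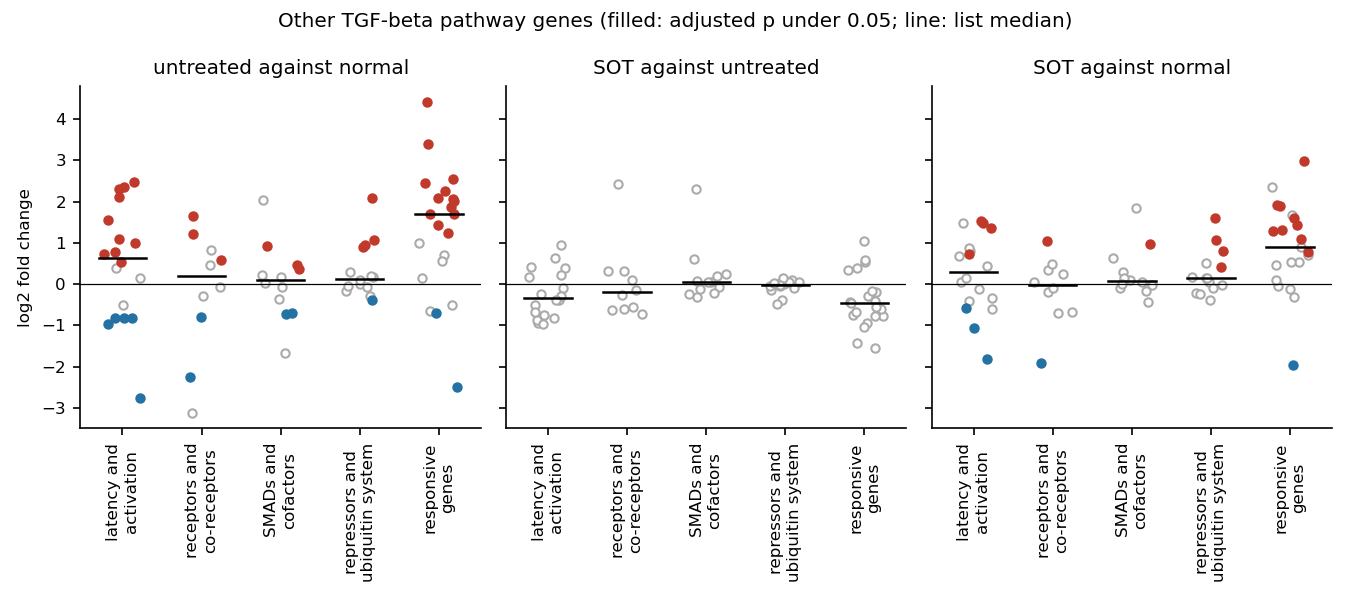
Log2 fold change (y axis) of 75 other pathway genes, 1 point per gene in 5 lists (x axis), for the 3 comparisons, filled where adjusted p was under 0.05, with the median of each list as a line. Responsive genes have the highest median in untreated against normal folds (1.69), and no point is filled in SOT against untreated folds.

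Genes of latency and activation moved in both directions. Of 18, 10 rose and 5 fell in untreated against normal folds (median 0.63), beside 32.8% of all tested genes called. FURIN, a protease that cleaves the TGF-beta precursor, rose from 63.6 ± 5.98 to 355 ± 59.1 CPM, and ITGB3, a subunit of an integrin that binds the latent complex, rose from 11.3 ± 2.35 to 57.3 ± 1.5 CPM. NRROS, which anchors latent TGF-beta 1 on myeloid cells, rose from 7.22, 10.1 and 8.34 CPM in normal to 34.1, 44.82 and 47.1 CPM in untreated libraries. By contrast the latent TGF-beta binding protein genes LTBP4 and LTBP3, which take their symbols here from a RefSeq table, fell from 353 ± 71.6 to 51.8 ± 13.1 CPM and from 120 ± 24.4 to 61.3 ± 4.10 CPM. ITGB8, an integrin subunit that activates the latent ligand, fell from 141 ± 8.16 to 79.2 ± 7.79 CPM (adjusted p = 0.0121, and 0.0511 without untreated replicate 2). In SOT folds NRROS had 27.8, 22.9 and 21.2 CPM, below every untreated and above every normal library (against untreated, log2 fold change -0.81, adjusted p = 0.169, and 0.00981 by DESeq2). Against normal folds 4 of the 18 rose and 3 fell, beside 16.7% of all tested genes called. NRROS, FURIN and BMP1, a protease that releases latent complexes, had higher levels, and LTBP4, PCSK6 and LTBP3 lower levels. PCSK6, a protease related to furin, was at 97.1 ± 15.6 CPM in normal and 46.9 ± 5.50 CPM in SOT folds. The LTBP3 call against normal folds (adjusted p = 0.0325) ended on leaving out normal replicate 1 or 2, untreated replicate 1 or 3 or any SOT library (0.0501 to 0.0998), on log2(FPKM + 0.1) (0.0668) or log2(FPKM + 1) (0.0666), and with only the 2 groups in the fit (0.0811).

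Of 10 receptor and co-receptor genes, 3 rose and 2 fell in untreated against normal folds (median 0.21), beside 32.8% of all tested genes called. TGFBR3, betaglycan, a co-receptor that presents TGF-beta 2 to the signalling receptors, fell from 205, 249 and 216 CPM in normal to 66.2, 32.0 and 43.8 CPM in untreated libraries, and stood at 70.9, 48.5 and 59.0 CPM in SOT libraries. Both injured groups lay far below the normal one, with log2 fold changes of -2.24 (SE 0.27, adjusted p = 0.00107) and -1.91 (SE 0.26, adjusted p = 0.00556). ACVRL1, a receptor kinase of endothelium, rose from 35.7 ± 6.31 to 113 ± 19.6 CPM, and DAB2, an adaptor of receptor traffic, from 79.5 ± 11.7 to 184 ± 4.93 CPM. FKBP1A, which binds TGFBR1, was at 63.7 ± 9.37 CPM in normal and 95.8 ± 7.09 CPM in untreated folds (adjusted p = 0.0122, or 0.0505 leaving out untreated replicate 2). BAMBI, a pseudoreceptor, fell from 13.1 ± 4.38 to 7.56 ± 1.35 CPM (adjusted p = 0.0479), which held only when no library or normal replicate 3 was left out (otherwise 0.0536 to 0.147). It was also lost with no filter on low counts (0.0549), quantile normalization (0.0763), log2(FPKM + 1) (0.0520) or only the 2 groups in the fit (0.0590). In SOT against normal folds 1 of the 10 rose, ACVRL1 (adjusted p = 0.0418), and 1, TGFBR3, fell, beside 16.7% of all tested genes called. Leaving out any library but SOT replicate 3 ended the ACVRL1 call (0.0524 to 0.133). So did quantile normalization (0.0604) and only the 2 groups in the fit (0.0861). VASN, which binds TGF-beta, had the smallest p of this list between SOT and untreated folds, with 84.2 ± 15.5 and 123 ± 8.81 CPM (adjusted p = 0.280).

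Among 12 other SMAD genes and cofactors, 3 rose and 2 fell in untreated against normal folds (median 0.10), also beside 32.8% of all tested genes called. SMAD1, which carries bone morphogenetic protein signals, rose from 25.4 ± 2.72 to 48.5 ± 1.89 CPM and was at 50.2 ± 3.49 CPM in SOT folds, the 1 gene of the list that also rose against normal folds (adjusted p = 0.00317). SMAD4, the partner of SMAD2 and SMAD3, rose from 75.9 ± 7.81 to 97.4 ± 3.79 CPM (adjusted p = 0.0295), a call lost without normal replicate 1 or 2 or untreated replicate 2 or 3 (0.0862 to 0.102) and with quantile normalization (0.0816). EP300, a coactivator, rose from 133 ± 12.6 to 184 ± 18 CPM (adjusted p = 0.0177), a call lost without normal replicate 1 or untreated replicate 2 or 3 (0.0640 to 0.0706) and with quantile normalization (0.0595). SMAD9 and ZFYVE9, which brings SMAD2 to the receptor, fell by 0.71 and by 0.69 on the log2 scale. The SMAD9 call (adjusted p = 0.0346) was lost without normal replicate 2 or 3 or untreated replicate 1 or 3 (0.0824 to 0.116), and the ZFYVE9 call (0.0432) without any library of the pair (0.0533 to 0.138) and on log2(FPKM + 1) (0.0520). SMAD9 had the smallest p of the list between SOT and untreated folds, with 35.1 ± 5.46 and 22.9 ± 4.34 CPM (adjusted p = 0.301).

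Of 14 tested repressors and genes of the ubiquitin system, 4 rose and 1 fell in untreated against normal folds (median 0.13), a share near the 32.8% called over all tested genes. PMEPA1, an inhibitor induced by the pathway, rose from 8.74, 7.87 and 5.20 CPM to 25.4, 32.98 and 34.2 CPM. In the SOT libraries it had 22.8, 34.8 and 9.03 CPM, so that replicate 3 lay near the normal libraries. SKIL and TGIF1, transcriptional repressors that bind SMADs, rose from 20.98 ± 2.22 to 40.3 ± 4.13 and from 31.5 ± 6.48 to 65.7 ± 1.04 CPM, and had 36.6 ± 2.38 and 66.6 ± 4.002 CPM in SOT folds, higher than in normal folds as well (adjusted p = 0.00758 and 0.00492). PPM1A, a SMAD phosphatase, fell from 90.3 ± 5.96 to 69.5 ± 2.97 CPM (adjusted p = 0.0129, and 0.0664 without untreated replicate 3). In SOT against normal folds 4 rose and none fell, beside 16.7% of all tested genes called, although 2 were lower at an unadjusted p under 0.05. The PMEPA1 call there (adjusted p = 0.0397) ended on leaving out any library but SOT replicate 3 (0.0561 to 0.108), with quantile normalization (0.113) and with only the 2 groups in the fit (0.0916). TGIF2, a further repressor, had the smallest p of the list between SOT and untreated folds, with 22.9 ± 1.65 and 29.9 ± 3.48 CPM (adjusted p = 0.446).

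Of 21 tested genes known to respond to TGF-beta, 13 rose and 2 fell in untreated against normal folds (median 1.69). Over all tested genes 32.8% were called there. The responsive genes also respond to other signals. SNAI1, a transcription factor of mesenchymal change, rose by 3.39 and COL1A1, a chain of type I collagen, by 2.56 on the log2 scale. TIMP3, an inhibitor of metalloproteinases, fell from 223 ± 65.3 to 39.8 ± 15.6 CPM and was at 57.7 ± 7.47 CPM in SOT folds. TSC22D1, a TGF-beta stimulated transcriptional regulator, fell from 490 ± 58.4 to 300 ± 20.7 CPM (adjusted p = 0.0276), a call lost without normal replicate 1 or 2 or any untreated library (0.0518 to 0.0956).

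In SOT against normal folds 9 of these 21 rose and 1, TIMP3, fell (median 0.91), beside 16.7% of all tested genes called. VCAN, the matrix proteoglycan versican, was at a log2 fold change of 1.91 (adjusted p = 0.00812) and FN1, fibronectin, at 1.896 (0.0325). The FN1 call was lost without normal replicates 1, 2 or 3 or untreated replicates 2 or 3 (0.0501 to 0.107) and with only the 2 groups in the fit (0.0859). Without SOT replicate 2 its log2 fold change was 1.04. FN1 had 3427, 10214 and 2477 CPM in the SOT libraries, highest in replicate 2, which was also highest in TGFB3 and in the fibroblast markers. ANGPTL4, a lipase inhibitor, had the smallest p of the list between SOT and untreated folds, with 14.5 ± 8.16 and 42.1 ± 15.9 CPM (adjusted p = 0.287).

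Across all 9 libraries, the genes with a pattern most like each ligand were found by Pearson's r of log2 CPM over 14167 other tested genes with a symbol. The points share libraries and groups, so r is a description only. For TGFB1 they were SLC7A8 (r = 0.997), an amino acid transporter, HPS5 (0.997), a factor of lysosome-related organelles, and CTSK (0.995), the collagen-degrading cathepsin K. CTSK had 234 ± 39.4, 1329 ± 73.1 and 761 ± 228 CPM in normal, untreated and SOT folds. For TGFB3 they were FKBP10 (0.988), a collagen chaperone, COL5A1 (0.983), a chain of type V collagen, and GPX7 (0.977), a peroxidase of the endoplasmic reticulum. FKBP10 had 116 ± 37.6, 276 ± 6.31 and 194 ± 112 CPM, with the wide SOT spread that TGFB3 also had. For TGFB2 they were FAM13A (0.979), RGAG4 (0.9748) and CDC37L1 (0.974), and FAM13A had 48.0 ± 20.6, 18.2 ± 6.91 and 23.9 ± 9.74 CPM in normal, untreated and SOT folds. The number of genes with r over 0.9 was 1244 for TGFB1, 182 for TGFB3 and 169 for TGFB2.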

How the data were processed

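Polyadenylated RNA of rabbit vocal folds was sequenced in 9 libraries of 44755718 to 50338111 counts. The deposited table gave, per the file headers, a whole-number read count and an FPKM value per gene and library, made by the authors. Cutadapt 1.9, HISAT2 2.0.4, StringTie 1.3.4d and edgeR and the build OryCun2.0 are named, with no roles, per the submitters' processing notes. Strandedness and the handling of shared reads are not stated in those notes or the labels. Groups and replicate numbers came from the sample titles.

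From the deposited counts, edgeR 4.0.16 in R 4.3.3 was run with filtering by group (filterByExpr), TMM scaling and a quasi-likelihood fit of 1 mean per group to all 9 libraries, with Benjamini-Hochberg adjustment over 17344 genes and a threshold of 0.05. An SE is the log2 fold change divided by the root of F, and intervals are 95% per gene, not adjusted. CPM are on the TMM scale. The code of the fit was run on simulated counts drawn with the same spread setting for every gene and group. Those counts do not copy the spread of these data, so that run does not show how the fit performs here. Chromosome numbers follow the order of the RefSeq accessions in the deposited table. Symbols were given to 595 of 5734 locus-numbered genes from RefSeq (mOryCun1.1, names only). Ratios used the deposited FPKM with two-sided exact permutation tests. Other settings were RLE scaling, no filter, DESeq2 1.42.0, limma 3.58.1 (voom with quantile normalization, and log2(FPKM + 0.1) or log2(FPKM + 1)), only the 2 groups compared, the replicate number as a block, and leaving out each library.

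The 9 genes and the lists were chosen with earlier results of these data known. In each pathway list and comparison, up to 3 passing genes per direction were named by size of change, and a list with no passing gene gave its gene of lowest p. A gene so chosen is not reported here. The 3 genes most correlated with each ligand were named too. Of the list genes, SKI, COMP and IGFBP3 were not matched. No sequences were used here.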

Additional observations from a re-analysis of the deposited data

How the results depend on the processing

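Of 27 results (9 genes in 3 comparisons), 17 kept their direction and their side of the threshold in all 17 alternatives. A change of sign occurred only for SMAD2 between SOT and untreated folds, at a log2 fold change of 0.027 with quantile normalization, 0.0898 on log2(FPKM + 0.1), 0.087 on log2(FPKM + 1), and from -0.085 without untreated replicate 1 to 0.0059 without SOT replicate 3. Members called in untreated against normal folds numbered 8, and 4 to 8 when 1 library was left out (4 without normal replicate 1 or untreated replicate 2, 5 without normal replicate 2 or untreated replicate 3), with 3145 to 6026 of all genes against 5692. Between SOT and untreated folds, no member was called except 2 with DESeq2, which also called 2 pathway genes. Of all genes 2 were called there, 645 with DESeq2, 25 with quantile normalization, 27 on log2(FPKM + 1), 0 on log2(FPKM + 0.1), 0 with only the 2 groups, and 0 to 397 when 1 library was left out (397 without SOT replicate 1, 6 without untreated replicate 1). Between SOT and normal folds 3 members were called, 5 with DESeq2, 5 on log2(FPKM + 0.1), 5 on log2(FPKM + 1), and 3 to 5 when 1 library was left out. Pathway genes called there numbered 24, 12 with only the 2 groups, and 12 without normal replicate 1 to 35 without SOT replicate 3. All genes called there numbered 2894, 4718 with DESeq2, 1578 with only the 2 groups, and 1135 without normal replicate 1 to 3222 without SOT replicate 3. Of the calls 54.0% were higher, and 43.9% with only the 2 groups. On log2(FPKM + 0.1) the median of all genes moved to 0.13 between SOT and untreated and 0.12 between SOT and normal folds. The causes were not tested.

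Whether replicate numbers pair the samples was not tested. Deviations of same-numbered libraries correlated at -0.0484 to 0.267, over 0.1 in 2 of 9 pairs, and 5 of 9 libraries correlated best with their own number. Those of differently numbered libraries correlated at -0.276 to 0.174. With the replicate block 7, 0 and 3 members were called (untreated against normal, SOT against untreated, SOT against normal), and 46, 0 and 18 pathway genes, and 5526, 0 and 2625 of all genes. The block also ended the calls of SMAD2 (adjusted p = 0.0611) and ZFYVE9 (0.0512) in untreated against normal folds, and of ACVRL1 (0.0658), FN1 (0.0526), LTBP3 (0.0545) and PMEPA1 (0.0501) in SOT against normal folds.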
